A study of Equus caballus with 17 samples.

Results

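The comparison described here set small RNA of pubertal horse testis against that of pre-pubertal horse testis. It used 6 of the 17 libraries of the series, the 3 labelled Puber (10, 11 and 19) and the 3 labelled Pre-puber (3a, 3b and 14). The libraries were chosen by stage label alone. All 6 were made from testis of Equus caballus, and the labels give a tissue and a stage but no age, breed, treatment or animal. The other libraries are 3 of Infant testis, 4 of Adult testis and 4 of sperm, and the 13 testis libraries together supplied the estimate of spread. The titles of Pre-puber 3a and 3b carry the same number, so these 2 libraries may come from 1 animal. The titles of 2 of the 3 Infant libraries also share a number, so these too may come from 1 animal. Each of them entered the estimate of spread as a separate library. Nothing in the labels states that the other libraries are separate animals, so p-values measure the spread between these libraries, which may be in part technical.

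MicroRNAs (miRNAs) are short RNAs cut from hairpin precursors. Each is loaded into an Argonaute protein and pairs, mainly through its seed (bases 2 to 8), with messenger RNAs that are then repressed. At puberty the seminiferous tubules of the testis gain spermatocytes and spermatids as germ cells enter meiosis, the supporting Sertoli cells stop dividing and the steroid-producing Leydig cells mature. In rodents the miR-34b/c and miR-449 clusters are known as miRNAs of meiotic and later germ cells, and the let-7, miR-99 and miR-125 families as abundant miRNAs of many differentiated tissues.

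The deposited table held 1763 entries. Of these, 302 named an annotated horse miRNA and covered 274 different names, and 1461 gave a hairpin sequence and position without a miRNA name, called predicted hairpins here, with 1459 different IDs. After a filter on low counts, 184 annotated miRNAs and 706 hairpins were tested. The hairpins are named here by hp and the table's ID. Only hairpins come with a sequence in the sources used here, so the hairpins on which the results turn are printed first, 5′ to 3′, with EquCab3.0 positions counted from 1.

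The first is the most abundant hairpin that was lower in Puber testis, in which the capitals mark GAGGUAG, the seed of the let-7 family, at bases 2 to 8. Read on the strand of the hairpin, GAGGUAG was found in 4 of 1459 hairpins (0.274%), and on either strand in 13 (0.891%).
hp6_4351986, chr6:80187889-80187965 on the plus strand: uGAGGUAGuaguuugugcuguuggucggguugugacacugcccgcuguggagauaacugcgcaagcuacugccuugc

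The next 4 are among the 8 largest rises of hairpins with a mean of at least 50 CPM in 1 group, and the capitals mark 19 bases with which all 4 begin. CCCAAAGCCCCCCAGUACA was found in 5 of 1459 hairpins (0.343%, both strands searched), on 5 chromosomes.
hp2_3274311, chr2:18972324-18972389 on the plus strand: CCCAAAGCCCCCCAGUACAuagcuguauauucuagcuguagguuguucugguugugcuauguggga
hp1_1809517, chr1:93357314-93357379 on the plus strand: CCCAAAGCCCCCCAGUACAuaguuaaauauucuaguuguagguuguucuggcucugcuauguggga
hp7_4552633, chr7:68762602-68762644 on the plus strand: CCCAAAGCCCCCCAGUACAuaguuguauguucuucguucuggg
hp20_2251686, chr20:39658711-39658775 on the minus strand: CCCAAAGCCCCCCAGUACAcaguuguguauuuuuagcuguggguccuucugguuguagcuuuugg

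A run of 14 bases, GCCAUGUCCGCACC, marked by capitals, joins hp10_157337, also among the 8 largest rises, to 2 other hairpins that rose, and 10 of 1459 hairpins (0.685%) held it on either strand.
hp10_157337, chr10:26243218-26243279 on the minus strand: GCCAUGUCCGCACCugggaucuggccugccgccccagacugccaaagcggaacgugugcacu
hp12_508931, chr12:1114075-1114138 on the minus strand: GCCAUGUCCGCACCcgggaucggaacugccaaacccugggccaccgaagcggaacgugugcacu
hp2_3250540, chr2:5152820-5152929 on the plus strand: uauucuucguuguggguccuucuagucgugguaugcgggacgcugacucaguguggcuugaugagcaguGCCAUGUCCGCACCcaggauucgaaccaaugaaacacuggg

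The last 3 stand for the largest set of hairpins joined by shared sequence. Their capitals mark its commonest run of 16 bases, AGGAAGAUUAGCCCUG, found on either strand in 39 of 1459 hairpins (2.67%).
hp20_2272886, chr20:61729814-61729868 on the minus strand: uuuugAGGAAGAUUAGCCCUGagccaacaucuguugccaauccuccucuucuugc
hp3_3707882, chr3:60857563-60857605 on the plus strand: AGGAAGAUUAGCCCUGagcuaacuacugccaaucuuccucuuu
hp1_1801341, chr1:86813786-86813830 on the plus strand: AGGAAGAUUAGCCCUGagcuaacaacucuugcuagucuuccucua

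Annotated counts per library ranged from 8108537 to 13117711 in Pre-puber and from 3958857 to 6037880 in Puber testis, so the Puber libraries were the shallower ones. Levels are given in CPM, annotated counts relative to the library's total, after TMM scaling, which sets libraries to a common scale through the bulk of the miRNAs. Library values are always listed in the order 3a, 3b, 14 for Pre-puber and 10, 11, 19 for Puber. Pre-puber 3a and 3b were not copies of 1 library: of 130 miRNAs with at least 100 counts in both, 48 differed by more than 1.5-fold. Pre-puber 14 stood apart from 3a and 3b, and on a log2 scale it lay nearer to the Puber mean than to the mean of 3a and 3b for 115 of 184 tested miRNAs. The counts of calls and the leading miRNAs are therefore given with and without it. Without it the Pre-puber group is 3a and 3b alone, which may be 1 animal. Calls and p-values without Pre-puber 14, here and below, may therefore measure no spread between Pre-puber animals. Markers of other cell types were read as summed CPM. Blood miRNAs (5 of 7 present, none at 0) summed to between 3005 and 5189 CPM in Pre-puber and between 1777 and 2706 CPM in Puber libraries. The sum of stromal and smooth muscle miRNAs (3 of 5 present, none at 0) ran from 31496 to 37769.7 CPM before puberty and from 23655 to 31471 CPM at puberty. Liver miRNAs (3 of 3 present, none at 0) reached 144 to 162 CPM before puberty and 305 to 360.5 CPM at puberty. The neural markers found (3 of 5) summed to 201 to 268 CPM in Pre-puber and 231 to 397 CPM in Puber libraries. The endothelial miR-126-5p ranged from 142 to 620.4 CPM and from 253 to 296 CPM. No marker of epithelium, and none of the striated muscle markers (a set without miR-499, which stands in the longer list described below), had an annotated entry among those used here.

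Among annotated miRNAs, miR-499-5p and miR-9052 rose from Pre-puber to Puber testis and none fell (edgeR's quasi-likelihood test, Benjamini-Hochberg adjusted p under 0.05). These 2 of 184 are 1.09% of the miRNAs tested. Unless another setting is named, calls of annotated miRNAs below refer to this fit, the main fit. At an unadjusted p under 0.05 there were 20 miRNAs higher in Puber (10.9%) and 14 lower (7.61%). For 49 miRNAs (26.6%) the levels of one group lay wholly above those of the other, 24 higher in Puber (13%) and 25 lower (13.6%). The median log2 fold change over all 184 was -0.02, with 90 values positive and 94 negative. Without Pre-puber 14, 30 miRNAs passed the threshold (16.3%), with 24 higher (13%) and 6 lower (3.26%), and both miRNAs named above were among them. Pre-puber 14 was nearer to the Puber mean for 21 of those 24 and for 4 of those 6, beside 115 of all 184 tested. In 13 of the 24 it lay below the Puber range. The 30 were chosen by the gap between 3a and 3b and the Puber libraries, so these counts are a description. Library totals in place of TMM gave 8 higher and 1 lower, upper-quartile scaling 6 and 1, and DESeq2's size factors 7 and 1. Scaling over annotated miRNAs and hairpins together gave 3 higher and 102 lower, and moved the median of the annotated miRNAs from -0.02 to -1.93. No miRNA passed with the 6 libraries alone (25 at an unadjusted p under 0.05), with libraries of 1 title number summed (23) or without the Infant libraries (35), an alternative added after seeing the data. None passed without Pre-puber 3a, Pre-puber 3b, Puber 11 or Puber 19 either (19 to 29 unadjusted). All directions below are relative to the bulk of annotated miRNAs.

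**Figure D1:**
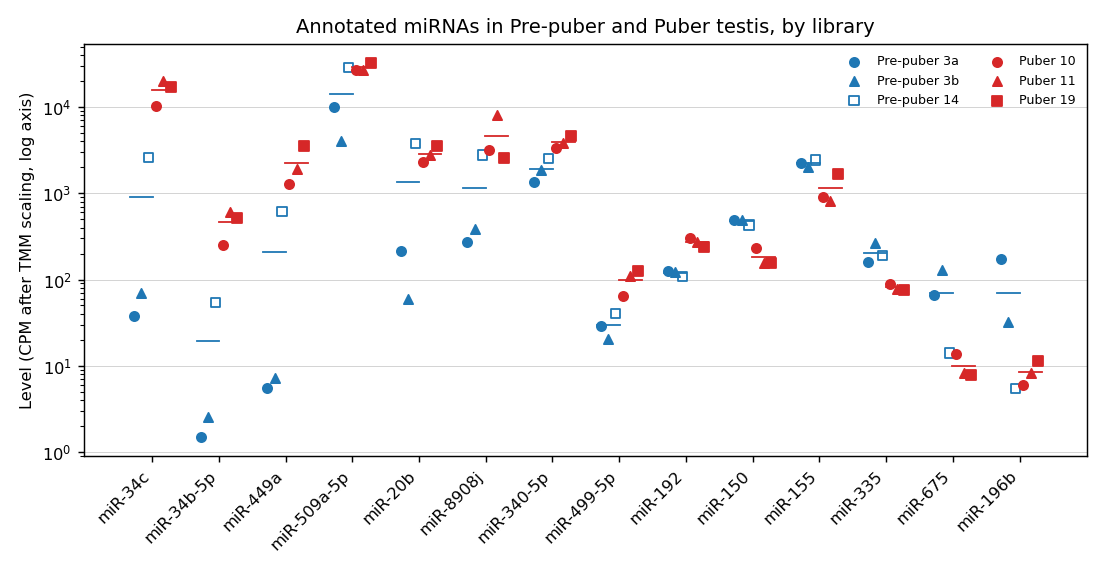
Levels of 14 annotated miRNAs (y axis, CPM after TMM scaling, log axis) in the 6 libraries (x axis, miRNA). Blue points are Pre-puber libraries, red points Puber libraries, short lines the group means, and the open square is Pre-puber 14. For miR-34c it stands at 2621 CPM, between Pre-puber 3b at 70.5 and Puber 10 at 10414 CPM.

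The miR-34 and miR-449 miRNAs share a seed, and 4 of the 5 tested had a log2 fold change above 3, all but miR-34a. None of the 5 passed adjustment in the main fit with all libraries, and miR-34b-5p, miR-34c, miR-449a and miR-449b had an unadjusted p under 0.05. The family's median log2 fold change was 3.69, beside -0.02 for all miRNAs. MiR-34c, the most abundant member, stood at 37.7, 70.5 and 2621 CPM in Pre-puber libraries 3a, 3b and 14 and 10414, 20294 and 17030.2 CPM in Puber libraries 10, 11 and 19. Both Pre-puber 3a and 3b were low, Pre-puber 14 was intermediate, and all Puber libraries lay above all Pre-puber ones. Its log2 fold change was 4.13 ± 1.22 (SE) with an adjusted p of 0.0815 by edgeR's quasi-likelihood test. Its rank by mean level was 57 in Pre-puber and 12 in Puber testis. Without Pre-puber 14, miR-34c rose by 8.22 on the log2 scale, with an adjusted p of 6.95e-07 by the same edgeR test. That fit set the Puber libraries against 3a and 3b alone, which may be 1 animal. With libraries of 1 title number summed and Pre-puber 14 kept, edgeR gave miR-34c a log2 fold change of 3.60 (adjusted p = 0.186). Its adjusted p ranged from 6.95e-07 to 0.307 over 16 alternatives, DESeq2 giving none. On all libraries it passed with library totals, upper-quartile scaling, limma-voom and scaling over all entries.

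MiR-34b-5p, made within 10 kb of miR-34c in the RefSeq annotation of the TB-T2T assembly, stood at 1.48, 2.57 and 54.6 CPM in the Pre-puber libraries and 252, 611 and 513 CPM in the Puber libraries. The order of the libraries was the same as for miR-34c in that Pre-puber 14 lay between the other Pre-puber libraries and all of the Puber ones. This was a log2 fold change of 4.56 ± 1.13 (SE, edgeR adjusted p = 0.0652), and 7.85 without Pre-puber 14, where it passed the threshold. On all libraries it also passed with library totals, upper-quartile scaling, DESeq2's size factors and no filter. It passed there with DESeq2, limma-voom and scaling over all entries too.

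The neighbouring miR-449a and miR-449b, also within 10 kb of each other there, showed the same arrangement. MiR-449a stood at 5.53, 7.18 and 619 CPM in the Pre-puber libraries and 1279.8, 1896 and 3538 CPM in the Puber libraries, and the groups did not overlap. The fitted log2 fold change was 3.41 ± 1.31 (SE, edgeR adjusted p = 0.208), and 8.48 without Pre-puber 14, where it passed, as it did with DESeq2 and limma-voom on all libraries (adjusted p = 0.0102 and 0.00443). MiR-449b was far less abundant, with 0.337, 0.135 and 2.52 CPM in the Pre-puber libraries and 5.78, 6.26 and 25.6 CPM in the Puber libraries, and it passed without Pre-puber 14. MiR-34a, the widely expressed member known as a target of p53, stood at 75.4, 84.5 and 46.6 CPM in the Pre-puber libraries and 59.7, 54.2 and 45.1 CPM in the Puber libraries. Its groups overlapped and its log2 fold change was -0.38 ± 0.37 (SE, edgeR adjusted p = 0.620). Over the whole family the summed level was 120.5, 165 and 3343 CPM in Pre-puber libraries 3a, 3b and 14, and 12011 to 22862 CPM in the Puber libraries. In bulk tissue, more cells of a type and more RNA per cell cannot be told apart, here and below.

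For orientation, the Infant libraries held 14.5 to 45.7 CPM of miR-34c and 2.88 to 5.94 CPM of miR-449a, close to Pre-puber 3a and 3b. The Adult libraries held 32499.8 to 40856 CPM and 4394 to 8192 CPM, above every Puber library. These ranges are given as levels and were not tested.

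MiR-499-5p, whose host is the slow myosin gene MYH7B and best known from heart and slow muscle, was the more abundant of the 2 miRNAs that rose. It stood at 28.5, 20.3 and 39.97 CPM in Pre-puber libraries 3a, 3b and 14 and 63.5, 109 and 125 CPM in Puber libraries 10, 11 and 19. Every Puber library lay above every Pre-puber library, Pre-puber 14 included. Group means were 29.6 ± 9.88 CPM and 99.1 ± 31.9 CPM (SD, n = 3 each), a log2 fold change of 1.74 ± 0.35 (SE) with an edgeR adjusted p of 0.0285. Without Pre-puber 14 it was 2.03 (edgeR adjusted p = 0.00192), and the adjusted p ranged from 5.19e-05 to 0.859 over 17 alternatives, 9 of which ended the call. Leaving out Pre-puber 3a or 3b, or Puber 11 or 19, was among these 9, as was scaling over all entries, which turned the log2 fold change to -0.13. No other miRNA of the striated muscle list had an annotated entry here, so the list rests on miR-499-5p alone.

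Several clusters known to lie on the mammalian X chromosome differed between Pre-puber 3a and 3b on one side and the Puber libraries on the other, while Pre-puber 14 came close to the Puber range or exceeded it. The X-linked miR-506 region, a fast-evolving group of testis miRNAs, had 5 tested members with a median log2 fold change of 0.65 and none past the threshold. MiR-509a-5p, its most abundant member, stood at 10081, 4054 and 28841 CPM in Pre-puber libraries 3a, 3b and 14 and 26802, 27157 and 32737 CPM in Puber libraries 10, 11 and 19. Pre-puber 3a and 3b were the lowest libraries, and Pre-puber 14 lay within the Puber range. The log2 fold change was 1.01 ± 0.54 (SE, edgeR adjusted p = 0.326) with all libraries, 2.04 without Pre-puber 14, where it passed, and -0.64 with scaling over all entries. The Infant libraries held only 172 to 345 CPM of it. MiR-514a, the second member by level, had 212, 52.8 and 711 CPM in the Pre-puber libraries and 285, 292 and 614 CPM in the Puber libraries, and miR-508-5p had 24.2, 12.9 and 88.6 CPM in the Pre-puber libraries and 78.8, 71.2 and 61.4 CPM in the Puber libraries. In both, Pre-puber 14 was the highest of the 6 libraries, and neither passed with or without it.

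The miR-17-92 cluster and its paralogs miR-106a-363 and miR-106b-25 are known from cell proliferation. Their 8 tested members had a median log2 fold change of 0.66, none past the threshold, and 1.52 without Pre-puber 14, where miR-17, miR-18b, miR-20b and miR-106a passed. MiR-20b, of the X-linked miR-106a-363 cluster, stood at 213, 59.4 and 3788 CPM in Pre-puber libraries 3a, 3b and 14 and 2337, 2749 and 3556 CPM in Puber libraries 10, 11 and 19. Pre-puber 14 had the highest level of all 6 libraries and Pre-puber 3a and 3b the lowest. The log2 fold change was 1.09 ± 0.99 (SE, edgeR adjusted p = 0.599) with all libraries, 4.41 without Pre-puber 14 and -0.22 with scaling over all entries.

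MiR-106a from the same cluster had 702, 520.5 and 3438 CPM in the Pre-puber libraries and 1988, 2246 and 3113 CPM in the Puber libraries, and its log2 fold change of 0.66 became 2.01 without Pre-puber 14 and -0.90 with scaling over all entries. MiR-17, of the autosomal cluster, had nearly the same values, 731, 564 and 3571 CPM in the Pre-puber libraries and 2107, 2394 and 3251 CPM in the Puber libraries. Sharing of reads between these names was not tested. MiR-20a, also of the autosomal cluster, had 1404, 1113 and 2743 CPM in the Pre-puber libraries and 1204, 1356 and 2544 CPM in the Puber libraries, with overlapping groups and a log2 fold change of -0.04. MiR-93, of the third cluster, had 773, 1047 and 1434 CPM in the Pre-puber libraries and 1536, 1791 and 1622 CPM in the Puber libraries. Its groups did not overlap, and it did not pass (log2 fold change 0.60 ± 0.32 (SE), edgeR adjusted p = 0.326), nor without Pre-puber 14, at 0.87.

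MiR-105 and miR-767-5p, an X-linked pair within 10 kb of each other, were scarce. MiR-105 had 0.809, 0.271 and 12.2 CPM in the Pre-puber libraries and 13.5, 27.6 and 31.9 CPM in the Puber libraries, and miR-767-5p had 0.944, 1.22 and 37.2 CPM in the Pre-puber libraries and 20.0, 40.3 and 62.0 CPM in the Puber libraries. Both were near 1 CPM in Pre-puber 3a and 3b and above 10 CPM in the other 4 libraries. Their log2 fold changes were 2.48 ± 1.02 (SE) and 1.65 ± 1.05 (SE) with all libraries (edgeR adjusted p = 0.230 and 0.453), and both passed without Pre-puber 14, at 5.35 and 5.24.

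MiR-340-5p and miR-192 had levels in which all 3 Puber libraries exceeded all 3 Pre-puber ones, and Pre-puber 14 did not leave its group by much. MiR-340-5p, encoded in an intron of RNF130, stood at 1354, 1887 and 2549.8 CPM in the Pre-puber libraries and 3359, 3838 and 4640.1 CPM in the Puber libraries. The group means were 1930.3 ± 599 CPM and 3946 ± 647 CPM (SD, n = 3 each), a log2 fold change of 1.03 ± 0.30 (SE, edgeR adjusted p = 0.0815), 1.30 without Pre-puber 14, where it passed, and -0.77 with scaling over all entries.

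MiR-192, known from liver, gut and kidney, had 127, 122 and 109 CPM in the Pre-puber libraries and 304, 274 and 238 CPM in the Puber libraries, and its spread within each group was small beside the gap. Its log2 fold change was 1.19 ± 0.34 (SE, edgeR adjusted p = 0.0815), 1.14 without Pre-puber 14 (not passing), and -0.73 with scaling over all entries. Its cluster partner miR-194 had 25.97, 16.5 and 26.2 CPM in the Pre-puber libraries and 39.9, 26.8 and 50.7 CPM in the Puber libraries, and the liver-specific miR-122 had 7.08, 5.42 and 26.2 CPM in the Pre-puber libraries and 16.2, 22.9 and 15.9 CPM in the Puber libraries. The 3 miRNAs of the liver list had a median log2 fold change of 0.77, and most of their summed level given above was miR-192. MiR-122 had a log2 fold change of 0.51 ± 0.56 (SE) with all libraries and passed without Pre-puber 14, at 1.55.

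MiRNAs named only in horse, numbered miR-8900 to miR-9199, were a group formed after the values had been seen. Of 72 in the table, 20 were tested, and all 20 had a positive log2 fold change, with a median of 1.51. MiR-9052, miR-9054, miR-8993, miR-9049 and miR-9149 were at 0 in Pre-puber 3a and 3b and in all Infant libraries. They passed the low-count filter through other libraries, the Puber ones among them, so the shared sign is no test of direction. MiR-9052 was the only one to pass in the main fit with all libraries, and 9 had an unadjusted p under 0.05. Among these 9, miR-9156 had 185 counts in Puber 10, 1 in Puber 11 and 0 in Puber 19. MiR-9052 rested on 1 count in the Pre-puber libraries and 47 in the Puber libraries (13, 19 and 15). The ratio of scaled levels was 91.6, with an exact 95% interval of 15.7 to 3694 that covers counting error only. The single count was in Pre-puber 14, and against 0 counts in 3a and 3b the level was at least 23.1-fold higher (3 counts over the group). Its call was kept without Pre-puber 14 and lost when any other library was left out.

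MiR-8909 had 0.0674, 0 and 48.0 CPM in the Pre-puber libraries and 49.7, 67.3 and 636 CPM in the Puber libraries, so 2 Pre-puber libraries were near 0 while Pre-puber 14 was close to Puber 10. This was a log2 fold change of 3.98 ± 1.73 (SE, edgeR adjusted p = 0.247). Puber 19 held most of its Puber counts, and without it the log2 fold change was 1.91. Without Pre-puber 14, 1 count stood against 3896, a ratio of 5747 (exact 95% interval 1031 to 227067). MiR-9054 and miR-8993 had 3 Pre-puber counts each, all in Pre-puber 14, against 43 and 19 in the Puber libraries. MiR-9149 had 33 and 278 counts and miR-9049 had 19 and 130, again with 0 in Pre-puber 3a and 3b. Without Pre-puber 14, 10 of the horse-numbered miRNAs passed, and the median log2 fold change of 18 was 3.39, or 3.09 with the 5 that were at 0 set to their lower bound.

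The miR-8908 family, whose members f, g, j and k lie within 10 kb of one another in the TB-T2T annotation, held most of the counts of that group. MiR-8908j had 272, 383 and 2786 CPM in Pre-puber libraries 3a, 3b and 14 and 3163, 8048 and 2595 CPM in Puber libraries 10, 11 and 19. Pre-puber 14 overlapped Puber 19, and Puber 11 was the highest. The fitted log2 fold change was 2.00 ± 0.84 (SE, edgeR adjusted p = 0.230) and 3.83 without Pre-puber 14. MiR-8908g had 65.5, 74.7 and 596 CPM in the Pre-puber libraries and 291, 633 and 694 CPM in the Puber libraries, with a log2 fold change of 1.14, 2.96 without Pre-puber 14 and -0.33 with scaling over all entries. The family's 4 tested members had a median of 0.90 with none past the threshold, and all 4 passed without Pre-puber 14, with a median of 3.39. In the Infant libraries miR-8908j lay at 10.5 to 43.0 CPM and in the Adult libraries at 3999.8 to 10934 CPM.

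**Figure D2:**
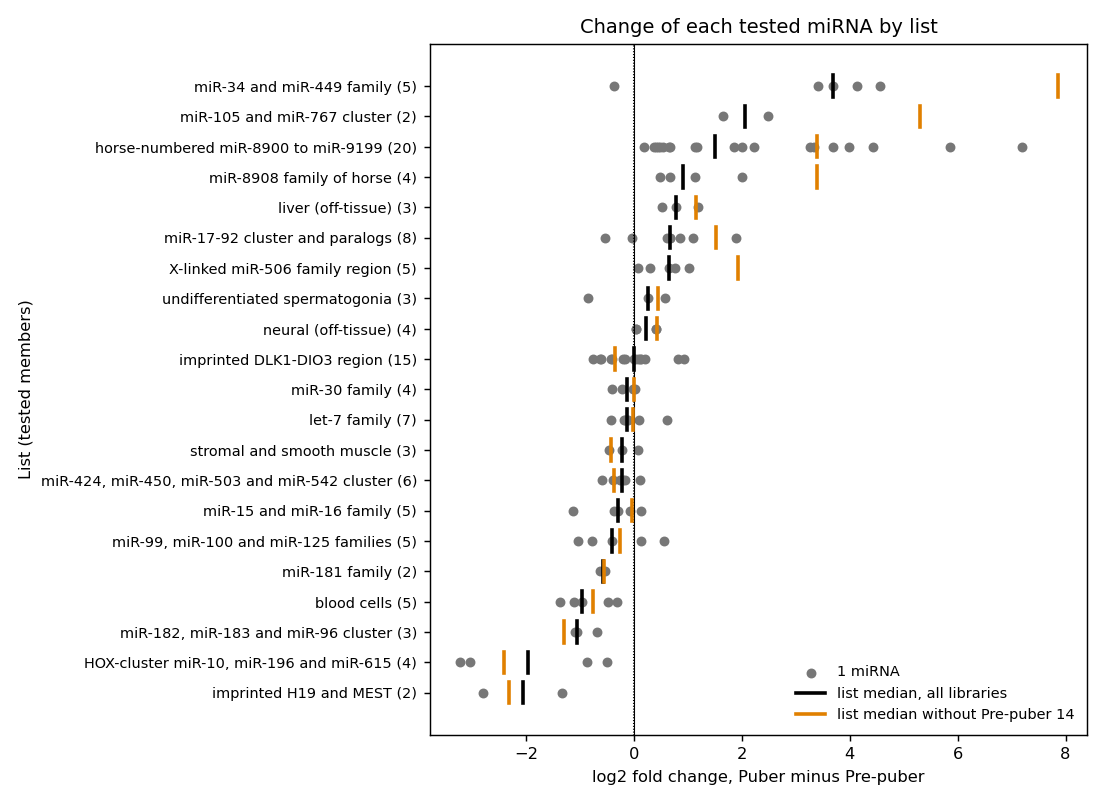
The log2 fold change (x axis, Puber minus Pre-puber) of each tested miRNA (grey points) in each list with at least 2 tested members (y axis, number tested in brackets). Black bars are list medians with all libraries and orange bars those without Pre-puber 14. For miR-34 and miR-449 the orange bar stands at 7.85, beyond the black bar at 3.69, while both bars of the let-7 and miR-30 families lie close to 0. All directions are those under TMM scaling of the annotated miRNAs. The orange bar of the horse-numbered miRNAs, at 3.39, contains members at 0 counts in the remaining Pre-puber libraries.

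In the main fit no annotated miRNA passed the threshold in the direction of lower levels in Puber testis when all libraries were used. Some other settings on all libraries gave 1 fall each: library totals, upper-quartile scaling, DESeq2's size factors and no filter. DESeq2 gave 5, limma-voom 3 and scaling over all entries 102. MiR-675 passed in each of these but limma-voom, and miR-150 and miR-335 passed with DESeq2, limma-voom and scaling over all entries. The 6 that fell without Pre-puber 14 were miR-675, miR-196a, miR-196b, miR-135a, miR-150 and miR-335. MiR-675 is cut from the first exon of H19, a maternally expressed long RNA linked to growth, and miR-335 lies in an intron of the paternally expressed MEST, so both come from imprinted genes. MiR-675 stood at 65.6, 128 and 14.0 CPM in Pre-puber libraries 3a, 3b and 14 and 13.7, 8.20 and 7.84 CPM in Puber libraries 10, 11 and 19. Pre-puber 14 lay just above Puber 10 and well below Pre-puber 3a and 3b, so the groups came close without overlapping. The log2 fold change was -2.80 ± 0.68 (SE, edgeR adjusted p = 0.0652) and -3.26 without Pre-puber 14 (edgeR adjusted p = 0.000407, range 0.000407 to 0.264 over 17 alternatives). The Infant libraries held 87.2 to 254 CPM and the Adult libraries 9.55 to 15.5 CPM.

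MiR-335 had 159, 264 and 189 CPM in the Pre-puber libraries and 89.0, 78.3 and 75.7 CPM in the Puber libraries. All Puber libraries lay below all Pre-puber ones, Pre-puber 14 included. Its log2 fold change was -1.33 ± 0.39 (SE, edgeR adjusted p = 0.0815) and -1.37 without Pre-puber 14. The large imprinted DLK1-DIO3 cluster, from which many miRNAs of growing tissue are cut, had 15 tested members with a median log2 fold change of -0.01 and none past the threshold. Its most abundant member miR-379 had 21115, 37924 and 10377 CPM in the Pre-puber libraries and 36404, 33236 and 10326 CPM in the Puber libraries. Pre-puber 14 and Puber 19 were its 2 lowest libraries. MiR-411 had 11043, 10822 and 6614 CPM in the Pre-puber libraries and 7383, 7489 and 6170.4 CPM in the Puber libraries, and miR-299, the only member with an unadjusted p under 0.05, had a log2 fold change of -0.76 ± 0.34 (SE).

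MiR-196a and miR-196b are encoded inside the HOX gene clusters, which set position along the body axis. MiR-196a had 160.0, 39.8 and 4.63 CPM in the Pre-puber libraries and 4.43, 4.75 and 12.4 CPM in the Puber libraries, and miR-196b had 173, 32.0 and 5.47 CPM in the Pre-puber libraries and 5.97, 8.20 and 11.3 CPM in the Puber libraries. In both, Pre-puber 3a was the highest, 3b was next and Pre-puber 14 lay at the level of the Puber libraries, so the difference came from 3a and 3b. Their log2 fold changes were -3.24 ± 1.07 (SE) and -3.05 ± 0.93 (SE, edgeR adjusted p = 0.111 and 0.0923). Without Pre-puber 14 they were -3.78 and -3.59, and without Pre-puber 3a -1.60 and -1.12. The Infant libraries held 4.29 to 45.7 CPM of miR-196a and 9.78 to 31.0 CPM of miR-196b. MiR-10b, the abundant HOX-cluster miRNA, had 79065, 148520 and 89530.4 CPM in the Pre-puber libraries and 84539, 86455 and 51755 CPM in the Puber libraries, with overlapping groups and a log2 fold change of -0.51 ± 0.38 (SE). MiR-135a had 189, 185 and 50.9 CPM in the Pre-puber libraries and 85.3, 37.8 and 39.2 CPM in the Puber libraries, with Pre-puber 14 within the Puber range and a log2 fold change of -1.39 ± 0.55 (SE, edgeR adjusted p = 0.228), which became -1.78 without it (edgeR adjusted p = 0.0216).

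The blood cell list had 5 tested members with a median log2 fold change of -0.97. All 5 values were negative, 3 had an unadjusted p under 0.05 and none passed adjustment. Without Pre-puber 14 the median was -0.77, 1 passed, and miR-486-5p and miR-451 turned positive, to 0.70 and 0.54. MiR-150, a miRNA of mature lymphocytes, had 494, 492 and 428 CPM in the Pre-puber libraries and 234, 153 and 156 CPM in the Puber libraries. The groups did not overlap, and its log2 fold change was -1.38 ± 0.41 (SE, edgeR adjusted p = 0.0815), or -1.43 without Pre-puber 14, where it passed. MiR-155, known from activated lymphocytes and macrophages, had 2228, 2035 and 2439 CPM in the Pre-puber libraries and 914, 823 and 1693 CPM in the Puber libraries, a log2 fold change of -0.97 ± 0.31 (SE, edgeR adjusted p = 0.108), and did not pass without Pre-puber 14 either. MiR-142-5p, found across blood cells, had 631, 304 and 845 CPM in the Pre-puber libraries and 331, 215 and 271 CPM in the Puber libraries, with Puber 10 above Pre-puber 3b. The red cell miRNAs had their highest level in Pre-puber 14. MiR-486-5p had 484, 142 and 1288 CPM in the Pre-puber libraries and 265, 749 and 509.6 CPM in the Puber libraries, and miR-451 had 61.3, 31.7 and 188 CPM in the Pre-puber libraries and 32.7, 91.9 and 76.7 CPM in the Puber libraries. Their log2 fold changes were -0.33 ± 1.07 (SE) and -0.48 ± 1.09 (SE). The part of blood content in other results was not tested.

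Other miRNAs with no overlap between the groups and lower Puber levels had unadjusted but not adjusted p-values under 0.05. MiR-125b-5p, the vertebrate relative of the developmental timing miRNA lin-4, was the most abundant, with 26141, 17648 and 40309 CPM in the Pre-puber libraries and 12615, 11927 and 16019 CPM in the Puber libraries. Pre-puber 14 was the highest library, and the log2 fold change of -1.05 ± 0.34 (SE, edgeR adjusted p = 0.108) was -0.68 without it. MiR-195, of the miR-15/16 family that restrains the cell cycle, had 4269.8, 2925 and 7409 CPM in the Pre-puber libraries and 2589.8, 1968 and 2052 CPM in the Puber libraries, again with Pre-puber 14 the highest and a log2 fold change of -1.14 ± 0.47 (SE) that was -0.70 without it. MiR-181a, known from lymphocyte development, had 3536, 2661 and 3936 CPM in the Pre-puber libraries and 2245, 2222 and 2092 CPM in the Puber libraries and a log2 fold change of -0.63 ± 0.29 (SE), or -0.49 without Pre-puber 14. MiR-362-5p, from an X-linked cluster, had 113, 144 and 128 CPM in the Pre-puber libraries and 49.9, 60.2 and 95.03 CPM in the Puber libraries and a log2 fold change of -0.91 ± 0.35 (SE), or -0.90 without Pre-puber 14. None of these 4 passed without it.

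The most abundant miRNAs were largely the same in both groups, while their order differed. MiR-99a was first in both groups, with 139443, 194120 and 213473 CPM in the Pre-puber libraries and 189615, 144693 and 77330.3 CPM in the Puber libraries, and Puber 19 was its lowest library. Of the 10 most abundant miRNAs, 9 were the same in both groups: miR-99a, miR-10b, miR-26a, miR-21, miR-100, let-7a, let-7c, let-7f and let-7g. MiR-125b-5p was among the 10 of Pre-puber testis only, and miR-509a-5p among the 10 of Puber testis only. MiR-26a had 91973, 102537 and 104809 CPM in the Pre-puber libraries and 80937, 63209 and 45428 CPM in the Puber libraries, with every Puber library below every Pre-puber one and a log2 fold change of -0.66 ± 0.40 (SE) that did not pass (edgeR adjusted p = 0.416). MiR-21, a miRNA of growth and inflammation that is also known from spermatogonia, had 59119.8, 68053 and 89197 CPM in the Pre-puber libraries and 79111, 81338 and 96141 CPM in the Puber libraries and a log2 fold change of 0.25 ± 0.36 (SE).

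The let-7 family, which promotes differentiation and is counteracted by LIN28 in spermatogonia, had 7 tested members with a median log2 fold change of -0.13 and none with an unadjusted p under 0.05. Let-7g had 69377, 68609.7 and 79271 CPM in the Pre-puber libraries and 81544, 58930.2 and 61083 CPM in the Puber libraries, let-7c had 57258, 85835 and 69999 CPM in the Pre-puber libraries and 89398, 59079.9 and 40904 CPM in the Puber libraries, and let-7f had 35364, 49312 and 42590.0 CPM in the Pre-puber libraries and 102782, 57858 and 34153 CPM in the Puber libraries. In let-7c and let-7f, Puber 10 was the highest library and Puber 19 the lowest, so the spread within Puber was wider than the gap between the groups. The miR-30 family had 4 tested members with a median of -0.13, and miR-30d lay between 11954 and 16063 CPM in all 6 libraries. The cluster of miR-424, miR-450, miR-503 and miR-542, X-linked like the miR-506 region, had 6 tested members with a median of -0.23 and none with an unadjusted p under 0.05. Its most abundant member miR-450b-5p had 13604, 19545 and 8919 CPM in the Pre-puber libraries and 13321, 13888 and 7904 CPM in the Puber libraries. The cluster of miR-96, miR-182 and miR-183, known from sensory cells, had 3 tested members with a median of -1.06 and none past the threshold. MiR-182 had 129.8, 419.7 and 159 CPM in the Pre-puber libraries and 142, 176 and 124 CPM in the Puber libraries, and miR-183 had 59.1, 164 and 51.9 CPM in the Pre-puber libraries and 40.4, 50.5 and 41.1 CPM in the Puber libraries. Pre-puber 3b was the highest library for both, and the median was -0.33 without it.

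For the miR-200, miR-29 and miR-23, miR-24 and miR-27 groups and for miR-202, no annotated entry was tested, and nothing is said of them here. The stromal and smooth muscle list had 3 tested members with a median log2 fold change of -0.23 and none past the threshold. Its most abundant member miR-199a-5p had 20227, 21928 and 21905 CPM in the Pre-puber libraries and 14968, 17618 and 13762 CPM in the Puber libraries, with no overlap, and miR-145 had 5045, 4242 and 5711 CPM in the Pre-puber libraries and 3808, 5989.7 and 6042 CPM in the Puber libraries, with overlap. The miRNAs linked to undifferentiated spermatogonia (3 tested) had a median of 0.25, with miR-146a at 2295, 3468 and 3419 CPM in the Pre-puber libraries and 2129, 1666 and 1282 CPM in the Puber libraries and miR-146b-5p at 609, 761 and 758 CPM in the Pre-puber libraries and 505, 551 and 2113 CPM in the Puber libraries. MiR-146a was lower in every Puber library and did not pass, and miR-146b-5p was raised in Puber 19 alone.

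Most predicted hairpins were higher in Puber testis when set on the scale of the annotated miRNAs. Of 706 tested, 394 passed edgeR's quasi-likelihood test at an adjusted p under 0.05 (55.8%), of which 392 rose (55.5%) and 2 fell (0.283%). At an unadjusted p under 0.05 there were 492 (69.7%), 490 of them higher in Puber (69.4%). The median log2 fold change was 2.86, with 673 values positive and 33 negative, or 2.85 with the 10 hairpins at 0 counts in Pre-puber testis set to their lower bound. In 549 hairpins (77.8%) every Puber library lay above every Pre-puber library, and in 8 (1.13%) every one lay below. The low-count filter asked for counts in only some of the testis libraries. A hairpin near 0 in Pre-puber testis could therefore be tested through Puber or Adult libraries. The split of signs, the median and the shares without overlap describe the hairpins so filtered and are no test of direction. The median level of the tested hairpins was 0.405, 0.271 and 4.56 CPM in Pre-puber libraries 3a, 3b and 14, and 11.4, 13.6 and 17.7 CPM in Puber 10, 11 and 19. Pre-puber 14 was thus more than 10 times above 3a and 3b and below each Puber library. Without it, 641 of 734 hairpins passed (87.3%), of which 637 rose (86.8%) and 4 fell (0.545%).

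**Figure D3:**
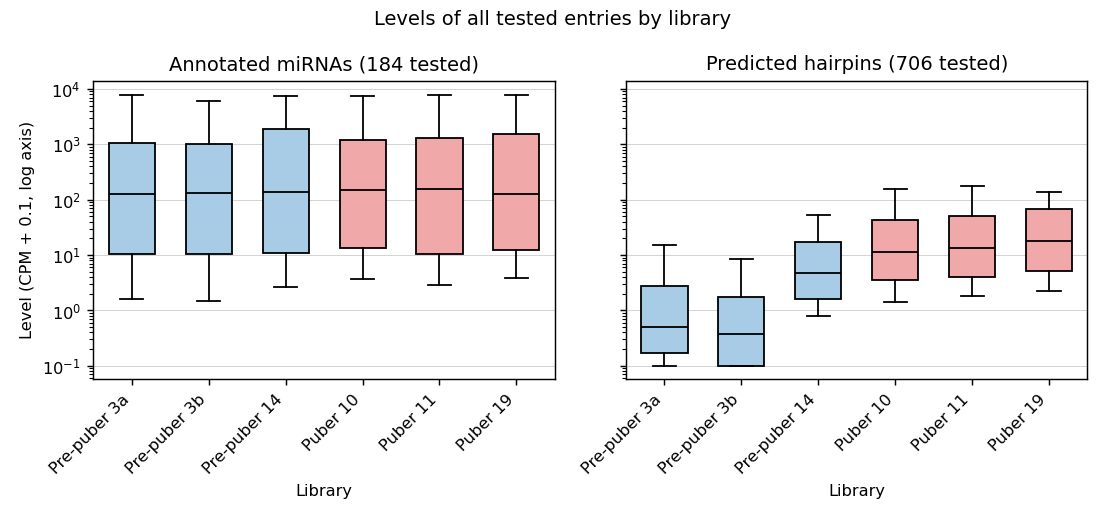
Levels of all tested annotated miRNAs (left) and predicted hairpins (right) in each library (y axis, CPM + 0.1, log axis). Boxes span the middle 50% of entries, lines are medians and whiskers reach the 10th and 90th percentiles. Annotated miRNAs are level across the 6 libraries, and the hairpin medians step from 0.271 to 0.405 CPM in Pre-puber 3a and 3b through 4.56 CPM in Pre-puber 14 to 11.4 to 17.7 CPM in the Puber libraries, before the 0.1 is added.

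The split depended on the scaling, and the count of calls on the libraries. With TMM factors taken from the hairpins themselves, 23 rose and 67 fell, with a median of 0.54. With annotated miRNAs and hairpins scaled together, 71 rose and 18 fell, with a median of 1.41. With the 6 libraries alone none of 607 passed, while 243 had an unadjusted p under 0.05, and without Puber 11 or without Pre-puber 3a 8 and 16 passed. With the libraries of 1 title number summed, Pre-puber 3a and 3b count as 1, and so does the Infant pair that shares a number. In that setting 27 of 741 hairpins passed, all higher in Puber, and 399 had an unadjusted p under 0.05.

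The share of hairpins in the counts kept (hairpins plus annotated miRNAs, 1 entry per ID or name) did not follow these calls. It was 14.0, 12.4 and 13.0% in Pre-puber 3a, 3b and 14 and 12.3, 15.5 and 15.9% in Puber 10, 11 and 19. The means were 13.1 ± 0.837% and 14.6 ± 1.96% (SD, n = 3 each), a difference of 1.44 percentage points (exact two-sided permutation p = 0.4; 3 against 3 libraries cannot give less than 0.1). Most hairpin counts fell on 6 hairpins with a mean of at least 1000 CPM, which summed to 138488, 154526 and 154927 CPM in Pre-puber and 132639, 140462 and 105156 CPM in Puber libraries. None of these 6 rose and 1 fell. The 392 that rose summed to 1499, 892 and 6584 CPM in Pre-puber libraries 3a, 3b and 14 and 21308, 26105 and 24760 CPM in the Puber libraries. They were chosen by this contrast, so these sums describe them and are no test.

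The hairpin that fell among the 6, hp6_4351986 with the let-7 seed, was also one of the most abundant entries of the whole comparison. It stood at 78215, 96247 and 63281 CPM in Pre-puber libraries 3a, 3b and 14 and 57076, 49206 and 45134 CPM in Puber libraries 10, 11 and 19. Every Puber library lay below every Pre-puber library, and Pre-puber 14 was the lowest of its group. This was a log2 fold change of -0.65 ± 0.23 (SE, edgeR adjusted p = 0.0331) and -0.77 without Pre-puber 14. The adjusted p ranged from 0.00252 to 0.121 over 13 alternatives, 7 of which ended the call. No annotated let-7 member was called lower, while 5 of the 7 tested had a negative log2 fold change. Hairpins and annotated miRNAs were adjusted separately, with 55.8% and 1.09% called, so a call in one does not compare with none in the other. The difference between hairpin and family was not tested. The other abundant hairpins gave no call: hp1_1707588 had 39142, 38357 and 69605 CPM in the Pre-puber libraries and 54768, 75090.5 and 48874 CPM in the Puber libraries, with overlapping groups. The second hairpin that fell, hp12_478902, was scarce, with 1.35, 0.406 and 1.96 CPM in the Pre-puber libraries and 0.193, 0.216 and 0.382 CPM in the Puber libraries.

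The first 2 of the shared runs printed above were found through hairpins chosen for large rises, so the values of their hairpins are a description. Of the 5 tested hairpins with CCCAAAGCCCCCCAGUACA, all 5 rose, with a median log2 fold change of 5.24 beside 2.86 for all hairpins. Of these, hp2_3274311 had 0.0674, 0.135 and 3.93 CPM in Pre-puber libraries 3a, 3b and 14 and 25.2, 45.1 and 87.0 CPM in Puber libraries 10, 11 and 19. Pre-puber 3a and 3b were near 0, Pre-puber 14 was intermediate, and Puber 19 was the highest. The fitted log2 fold change was 5.26 ± 1.504 (SE, edgeR adjusted p = 0.0187). The entries hp1_1809517 and hp7_4552633 held identical counts in every library, and hp20_2251686 nearly the same as hp2_3274311, with log2 fold changes of 5.24 for the pair and 5.22. The 5 share sequence and in part counts, so they are not independent.

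Of the 10 tested hairpins with GCCAUGUCCGCACC, 4 rose, beside 55.5% of all hairpins, and the median log2 fold change of the 10 was 3.04, close to the 2.86 of all hairpins. The entry hp10_157337 had 0.0674, 0 and 12.8 CPM in the Pre-puber libraries and 114, 186 and 64.6 CPM in the Puber libraries, and hp12_508931 had 0.135, 0.271 and 14.0 CPM in the Pre-puber libraries and 121, 182 and 79.4 CPM in the Puber libraries. Both had their highest level in Puber 11. The longer hp2_3250540 was the most abundant of the 3 printed, with 17.6, 14.8 and 223 CPM in the Pre-puber libraries and 549.6, 903 and 1049.9 CPM in the Puber libraries, and its log2 fold change was 3.29 ± 0.87 (SE, edgeR adjusted p = 0.0187).

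Of the 39 hairpins with AGGAAGAUUAGCCCUG, all 39 were tested and all 39 rose, beside 55.5% of all hairpins. Their median log2 fold change of 2.505 (range 2.24 to 3.61) was below the 2.86 of all hairpins. They lay on 20 chromosomes and had 20 different sets of counts, so several held the same counts. The entry hp20_2272886 had 13.6, 12.1 and 75.2 CPM in Pre-puber libraries 3a, 3b and 14 and 308, 389.9 and 311 CPM in Puber libraries 10, 11 and 19. All Puber libraries exceeded all Pre-puber libraries, and Pre-puber 14 was the highest of its group. Its log2 fold change was 3.32 ± 0.75 (SE, edgeR adjusted p = 0.0166). The entry hp3_3707882 had 29.5, 20.2 and 56.0 CPM in the Pre-puber libraries and 201, 198 and 138 CPM in the Puber libraries, and hp1_1801341 had 27.3, 18.1 and 55.7 CPM in the Pre-puber libraries and 200.5, 195 and 137 CPM in the Puber libraries. In the Infant libraries hp20_2272886 held 1.79 to 2.70 CPM, and in the Adult libraries 393 to 689 CPM.

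This run was held by 35 members of the largest set of hairpins joined by runs of at least 20 shared bases. That set had 108 members on 30 chromosomes, of which 107 were tested, 79 rose and none fell, beside 55.5% of all hairpins that rose, with a median of 2.95 and only 55 different sets of counts. The next sets had 25 members (all tested, 15 rose, median 2.73) and 17 members (all tested, 8 rose, median 3.06), with shares that rose near those 55.5%. Over all hairpins, 349 of 706 shared a run of 20 bases with another hairpin. Of these, 211 rose (60.5%), beside 181 of 357 (50.7%) that shared none, with medians of 2.90 and 2.83. On the scale of the annotated miRNAs, hairpins with and without shared sequence thus had similar medians. Both sets passed the filter described above, so these values are no test of direction. The difference between the shares was not tested. With 1 entry kept per set, 204 of 435 hairpins rose and 1 fell.

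The hairpins that rose were not gathered in 1 part of the genome. They lay on 32 chromosomes, and 16 of 392 (4.08%) had another tested hairpin within 10 kb, beside 22 of 314 (7.01%) of the rest. On chromosome X, 13 of 25 rose with a median of 2.81, beside 379 of 681 with a median of 2.86 on the other chromosomes. Median length was 55 bases for those that rose and 58 for the rest, and median GC content 47.6% and 50%. Among single hairpins with large rises, hpX_5269294 (chrX:91647819-91647874, minus strand) had 0.202, 0.135 and 5.47 CPM in the Pre-puber libraries and 49.3, 67.8 and 70.0 CPM in the Puber libraries, a log2 fold change of 5.01 ± 1.39 (SE, edgeR adjusted p = 0.0187). The pair hp26_2931793 and hp26_2931833 on chromosome 26 had identical counts, with 0.0674, 0.135 and 4.77 CPM in the Pre-puber libraries and 32.2, 89.5 and 63.9 CPM in the Puber libraries, and a log2 fold change of 5.23 ± 1.43 (SE).

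**Figure D4:**
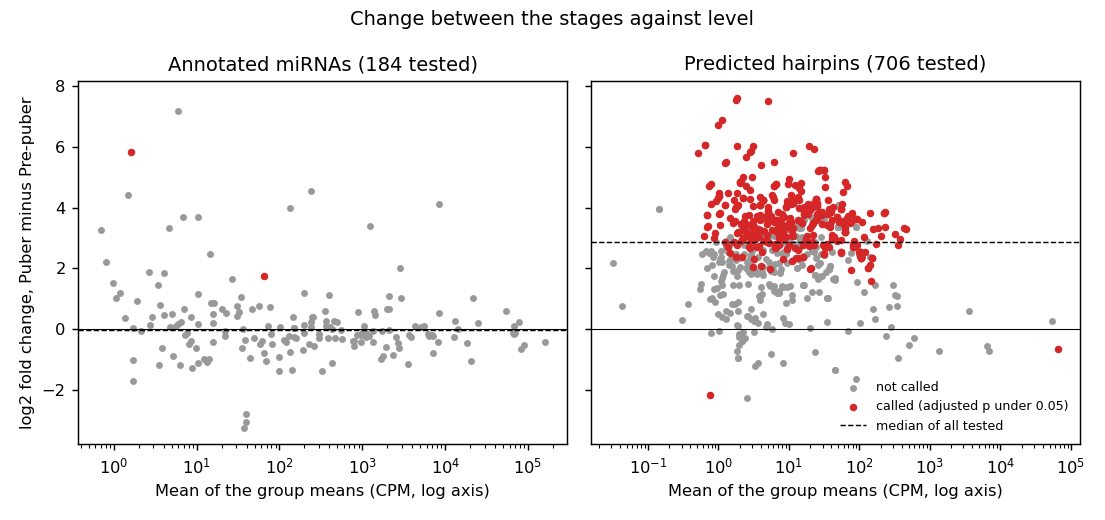
The log2 fold change (y axis, Puber minus Pre-puber) against the mean of the group means (x axis, CPM, log axis) for annotated miRNAs (left) and predicted hairpins (right). Red points passed an adjusted p under 0.05 and dashed lines are medians, -0.02 on the left and 2.86 on the right. Directions are relative to the annotated miRNAs, and with scaling by the hairpins themselves the split on the right turns to 23 higher and 67 lower.

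All 8 abundant hairpins with the largest rises kept their sign under each alternative, at log2 fold changes from 2.94 upward. Each lost its call without Pre-puber 3a and without Puber 11, and the levels of all 8 in Pre-puber 14 lay between those of the other Pre-puber libraries and those of the Puber libraries.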

How the data were processed

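Small RNA of the 6 libraries was isolated with TRIzol and sequenced after adapter ligation and size selection, per the labels' protocols. The submitters' processing notes name Trimmomatic (no version) and EquCab3.0. Neither the aligner nor the counter was given in the sources used here. Each deposited count was a whole number of reads per entry, as the values show. The deposited RPM values equalled the counts over each column's total within 0.005 RPM, and were used only for that check. Where a miRNA or hairpin ID had several entries, the one with the highest summed counts was kept. The 13 testis libraries were fitted together in edgeR 4.0.16 (R 4.3.3) with filterByExpr, TMM factors of the annotated miRNAs and a quasi-likelihood F test for Puber minus Pre-puber, and p-values were Benjamini-Hochberg adjusted over all entries tested, separately for annotated miRNAs and hairpins. The standard error of a log2 fold change is the fold change over the root of its F value. Hairpins used the library sizes and factors of the annotated miRNAs. The groups share no replicate numbers, so nothing was paired. DESeq2 1.42.0 and limma 3.58.1 served as alternatives, and single values were tested with exact permutation in scipy 1.17.1.

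The fits were checked on simulated counts, with 8-fold changes put into 40 of 184 miRNAs and 200 of 706 hairpins. Of the changed entries that passed the filter, 97.4% of miRNAs were recovered with 1 false call. For hairpins it was 46.1% with 0 false calls. The simulated hairpins were scaled by their own TMM factors and had balanced rises and falls. That check therefore does not cover the scaling by annotated miRNAs used for the hairpins here. The simulated miRNAs also had balanced rises and falls, and no simulated library was set apart from its group as Pre-puber 14 was. In the data miR-34b-5p, at a fitted 23.6-fold, and miR-34c, at 17.5-fold, were not called. The 97.4% is therefore no rate of recovery for the data. Named are miRNAs with an adjusted p under 0.05; the 12 largest rises and falls without overlap that have an unadjusted p under 0.05 and reach a mean of 50 CPM in 1 group; the 10 most abundant per group; the 10 largest calls each way without Pre-puber 14; the leading members of each list; and up to 8 hairpins each way. The comparison, members and lists were chosen with earlier results of these data known. RefSeq matched 183 of 184 tested miRNAs by precursor name and gave neighbours only, since its TB-T2T assembly is not the build of the files. Intervals cover counting error only.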

Additional observations from a re-analysis of the deposited data

How the results depend on the processing

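With all libraries, 2 annotated miRNAs passed. The count was 9 with library totals, 7 with upper-quartile scaling, 8 with DESeq2's size factors in edgeR, 1 with at least 10 CPM in 3 libraries, 16 with DESeq2, 19 with limma-voom, 105 with all entries in 1 fit, 0 with the 6 libraries alone (25 at an unadjusted p under 0.05) and 0 with libraries of 1 title number summed (23 unadjusted). Leaving out 1 library gave 0 to 30, the highest without Pre-puber 14, and an alternative added after seeing the data, without the Infant libraries, gave 0 (35 unadjusted). For hairpins the count of 394 became 90 with their own TMM factors, 89 with all entries in 1 fit, 0 with the 6 libraries alone, 27 with libraries of 1 title number summed and 205 with 1 entry per set sharing 20 bases, and leaving out 1 library gave 8 to 641. That last alternative was added after seeing the data: the planned 1 entry per mature sequence was not run, since the table gives no mature sequence. With all entries in 1 fit the log2 fold change reversed to -0.13 for miR-499-5p, -0.73 for miR-192, -0.77 for miR-340-5p, -0.22 for miR-20b, -0.33 for miR-8908g, -0.64 for miR-509a-5p and -0.90 for miR-106a. The cause of these changes was not tested. Where libraries were left out or summed, both their number and their make-up differed from the main fit. The difference in hairpin share stayed positive in each alternative. Scarce miRNAs such as miR-9052 are limited by counts. No paired analysis was possible because the groups share no replicate numbers.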
